A study of Eurytemora affinis with 15 samples.

Results

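The genes described here are the 100 that drew the most reads in whole adult males of the estuarine copepod Eurytemora affinis. They were selected on measured values, as the 100 genes with the highest mean normalised read count over 15 libraries, out of 23728 genes, or 0.421% of them. The mean that chose them was taken over all groups together, so no group comparison entered the choice directly. A gene high in 1 group could still pass through that group, as LOC111712411 and LOC111699860 did in part through Tancarville 2500 mg/L. The height of the 100 genes and their share of a library are what the choice fixed and are given as descriptions. The deposited files do not pair identifiers with gene names, and no sequence or product name was available here. All 100 carry LOC identifiers and none is among the 31 tRNA identifiers of the table, and no function is assigned to any of them. The labelled sex and the tissue could not be checked against marker genes for the same reason.

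The copepods came from the Seine estuary, and were kept at a salinity of 15 psu and 15 °C on the alga Rhodomonas salina before a 72 h exposure. Control males stayed in water alone. The others received elutriate, a water extract of sediment, of the Fatouville site at 350 mg/L or at 2500 mg/L, or of the Tancarville site at 350 mg/L or at 2500 mg/L. Each of these 5 groups has 3 libraries, each from a pool of 30 whole males, and the series compares the exposed groups with Control and the sites and concentrations with each other. The labels name no genetic change in any group, and the males are wild-caught adults with no age in days given. A library averages 30 animals and all their tissues, so fewer cells of a type and less RNA per cell cannot be told apart in any result below. The p-values set a difference between groups against the spread between pools, which limma estimates over all 15 libraries.

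In most animals a small number of genes supplies a large part of the messenger RNA. Such genes usually encode parts of the ribosome, of muscle, of mitochondria and, in crustaceans, of the cuticle and the digestive gland, where product names exist to tell. Their level matters for counting as well as for biology, since the reads of a library are a fixed budget and a shift in the most abundant transcripts alters what remains for all others.

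The 100 genes ranged from a mean normalised count of 191707 for LOC111706020 to 17576 for LOC111710623. Normalised counts are reads divided by 1 size factor per library and are not corrected for transcript length, so the order of the genes is an order of reads, not of molecules. The edge of the set is not a step. Just inside it LOC111717343 had a mean of 17607, while the next 2 genes outside, LOC111703270 and LOC111698563, had 17540 and 17374. Counting noise was small at these levels: no gene of the set had fewer than 2759 reads in any library, and libraries held from 13.64 to 17.21 M reads in genes. Between 80 and 95 of the 100 were also among the 100 most abundant genes of each single library, and 57 of them in every library.

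An earlier look at these data found 3 libraries that stood apart from the others of their groups, and values without them are given where a result moves. They are replicate 3 of Control, replicate 2 of Fatouville 350 mg/L and replicate 3 of Tancarville 2500 mg/L. For the abundant genes the Fatouville library was the most extreme. It held the lowest value of 43 of the 100 genes, against 10.6% of the 18921 genes tested. It also held the highest of the deposited Cook's distances, which grow with the pull of 1 library on a gene's fitted levels, for 49 of the 100 genes, against 16.8% of all genes with such distances. The part of this library in each result was tested only by leaving it out.

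Together the 100 genes drew 22.5 to 27.9% of the reads in a library, and the lowest group mean was that of Fatouville 2500 mg/L. The Control libraries gave them 27.8, 26.6 and 24.8% of reads, a mean of 26.4% ± 1.49 (SD, n = 3). The libraries of Fatouville 350 mg/L gave 26.5, 22.9 and 27.1%, a mean of 25.5% ± 2.28 (SD, n = 3). Those of Fatouville 2500 mg/L gave 22.9, 22.5 and 24.4%, a mean of 23.3% ± 0.967 (SD, n = 3). All 3 of these last libraries lay below every Control library, though the highest of them was close to the lowest Control. The libraries of Tancarville 350 mg/L gave 25.2, 26.6 and 27.2%, a mean of 26.3% ± 1.06 (SD, n = 3). Those of Tancarville 2500 mg/L gave 27.9, 27.2 and 24.8%, a mean of 26.6% ± 1.64 (SD, n = 3). Both Tancarville groups overlapped Control and each other. The Wilson 95% interval of a single share was at most 0.0236 percentage points to either side, for counting error only, so the spread within groups lies far above it.

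**Figure D1:**
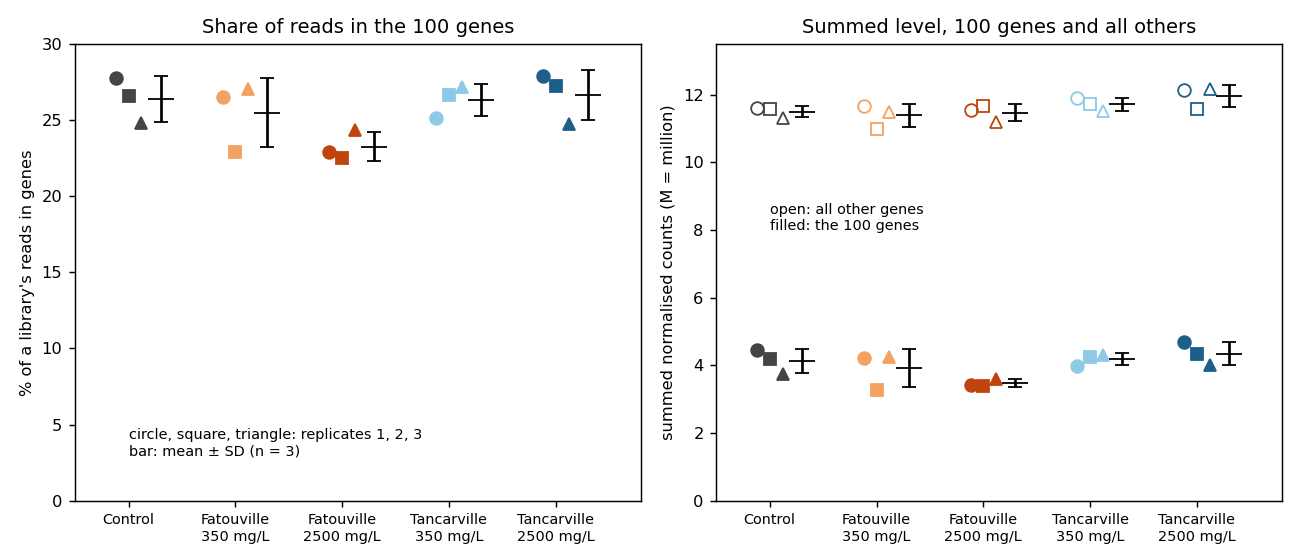
Left, percent of a library's reads in genes that fell in the 100 most abundant genes; right, summed normalised counts (M) of those genes (filled) and of all other genes (open), by group, with a symbol per replicate and bars for mean ± SD (n = 3). The Fatouville 2500 mg/L libraries sit between 22.5 and 24.4%, below the 3 Control libraries at 24.8 to 27.8%, while the summed level of all other genes stays between 11.0 and 12.2 M in all libraries.

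No difference in share passed the test. The share at Fatouville 2500 mg/L minus that of Control was -3.14 percentage points (exact permutation test over libraries, two-sided, p = 0.1, the smallest that 3 against 3 allows; 0.45 after Benjamini-Hochberg adjustment over 9 comparisons). Minus that of Tancarville 2500 mg/L it was -3.37 percentage points, also with an exact p of 0.1 and an adjusted value of 0.45. The other 7 comparisons had adjusted values from 0.9 to 1. The 12 exposed libraries together minus Control gave -0.971 percentage points, with an exact p of 0.444. Leaving out single libraries moved the difference between Fatouville 2500 mg/L and Control between -3.93 and -2.45 percentage points.

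In summed normalised counts the 100 genes reached 4.459, 4.198 and 3.736 M in the Control libraries. They reached 4.22, 3.263 and 4.261 M at Fatouville 350 mg/L and 3.433, 3.388 and 3.607 M at Fatouville 2500 mg/L. The Fatouville 2500 mg/L values lay below those of Control without overlap. Tancarville 350 mg/L had 3.995, 4.255 and 4.308 M. The libraries of the higher Tancarville concentration had 4.696, 4.332 and 4.006 M. All other genes together summed to between 11.0 and 12.2 M, with no group set apart in the same way.

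Within the set the reads were spread over many genes rather than concentrated in 1. The most abundant gene, LOC111706020, drew 0.912 to 1.58% of the reads in a library. The first 10 genes together took from 6.34 to 9.50%, and the first 50 from 16.4 to 20.8%. The share of the first 10 was lowest in Fatouville 2500 mg/L replicate 1 and highest in Control replicate 1. The number of genes needed to reach 50% of a library's reads ran from 430 in Tancarville 2500 mg/L replicate 1 to 656 in Fatouville 2500 mg/L replicate 2.

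LOC111706020 was at rank 1 or 2 in every library. Its normalised counts were 254151, 215241 and 158181 in Control, and 218156, 149366 and 211688 at Fatouville 350 mg/L. At Fatouville 2500 mg/L they were 144885, 154329 and 171585. At Tancarville 350 mg/L they were 144863, 203170 and 222518, and at Tancarville 2500 mg/L 234495, 213135 and 179834. The Fatouville 2500 mg/L values were low, but Control replicate 3 fell within their range and the groups overlapped. The limma log2 fold change of Fatouville 2500 mg/L against Control was -0.39 (SE 0.21, adjusted p = 0.27), and it was 0 with quantile normalisation, which gives the first gene of every library the same value.

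LOC111698521, the third by abundance, separated the same groups more clearly. Its normalised counts were 202633, 179170 and 140089 in Control and 166464, 149029 and 150902 at Fatouville 350 mg/L. At Fatouville 2500 mg/L they were 109933, 111327 and 121266. They were 136447, 155025 and 183876 at Tancarville 350 mg/L and 169134, 162596 and 143986 at Tancarville 2500 mg/L. The 3 Fatouville 2500 mg/L libraries were the lowest of all 15, and did not overlap any other group. The log2 fold change against Control was -0.59 (SE 0.15), with a limma adjusted p of 0.0643 over all genes tested, short of the threshold of 0.05 used throughout. On the whole reads recovered from the deposited values, DESeq2 gave -0.61 (SE 0.14, adjusted p = 0.00158).

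**Figure D2:**
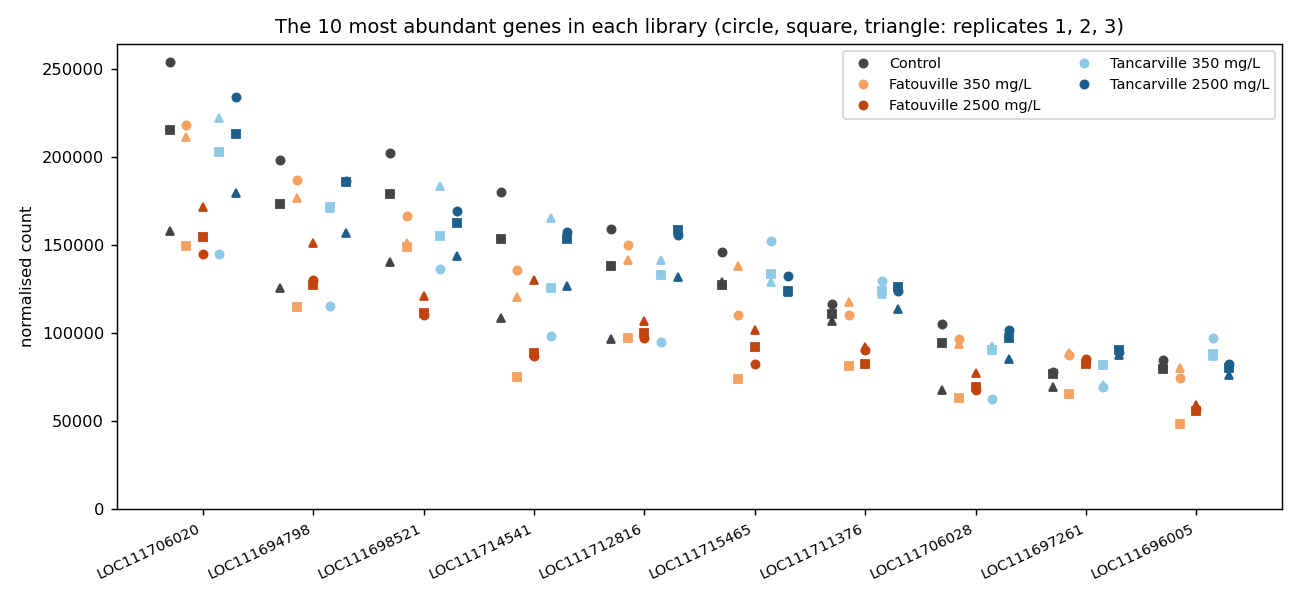
Normalised count of the 10 most abundant genes in each of the 15 libraries, with a colour per group and a symbol per replicate. LOC111698521 runs from 109933 to 121266 at Fatouville 2500 mg/L against 140089 to 202633 in Control, whereas LOC111697261 is not lower there than in Control.

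The 10 most abundant genes did not all vary alike. LOC111706020, LOC111694798, LOC111712816 and LOC111706028 kept nearly fixed proportions: the reads of LOC111706028 were from 0.414 to 0.473 times those of LOC111706020 in every library, and the correlation of their log2 levels over the 15 libraries was 0.98. LOC111694798 was at 198262, 173591 and 125286 in Control, and at 129830, 127103 and 151202 at Fatouville 2500 mg/L. It had its lowest values in replicate 2 of Fatouville 350 mg/L (114558) and replicate 1 of Tancarville 350 mg/L (115534). These genes were low in Control replicate 3 and in Tancarville 350 mg/L replicate 1, so their group ranges were wide.

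LOC111715465, LOC111711376 and LOC111696005 formed a second pattern, noticed after their values were seen, with correlations of 0.91 to 0.96 among themselves and 0.53 to 0.61 with LOC111706020. LOC111696005 was at 84475, 79367 and 82014 in Control and at 74068, 48257 and 79902 at Fatouville 350 mg/L. It was at 56751, 55372 and 59043 at Fatouville 2500 mg/L, at 97283, 88034 and 87005 at Tancarville 350 mg/L, and at 82058, 80075 and 76204 at Tancarville 2500 mg/L. Tancarville 350 mg/L replicate 1, where LOC111706020 had 144863, its lowest value, was the highest library for LOC111696005. Its 3 Fatouville 2500 mg/L libraries lay below all Control and all Tancarville libraries. Between groups lay 71.8% of its variance, against a median of 36.9% over the 100 genes. Its limma adjusted p was 0.0838 for Fatouville 2500 mg/L against Control (log2 fold change -0.52, SE 0.15) and 0.111 for any difference among the 5 groups. DESeq2 called LOC111696005 in both, with adjusted p-values of 0.00837 and 0.0012, and between the sites at 2500 mg/L (0.0226).

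LOC111711376 was at 116493, 110529 and 106750 in Control and at 110173, 81348 and 117434 at Fatouville 350 mg/L. It was at 90337, 82306 and 92196 at Fatouville 2500 mg/L, at 129617, 123574 and 122013 at Tancarville 350 mg/L, and at 123885, 126377 and 113851 at Tancarville 2500 mg/L. Fatouville 2500 mg/L lay below Control and both Tancarville groups without overlap. The log2 fold change of Fatouville against Tancarville at 2500 mg/L was -0.46 (SE 0.14, limma adjusted p = 0.0969), the smallest of the 100 in that comparison, and DESeq2 called it there (adjusted p = 0.00735). LOC111715465 had at Fatouville 2500 mg/L 82148, 92156 and 101607, against 146092, 127008 and 128901 in Control, and limma gave a log2 fold change of -0.55 (SE 0.18, adjusted p = 0.109), while DESeq2 called it (adjusted p = 0.0248).

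LOC111714541 varied more than its neighbours in abundance, from 74761 to 180310. LOC111697261, the ninth by abundance, had no lower level at Fatouville 2500 mg/L. It was at 77808, 76774 and 69193 in Control, at 85330, 82218 and 84582 at Fatouville 2500 mg/L, and at 89365, 89979 and 87551 at Tancarville 2500 mg/L. Both groups at 2500 mg/L lay above all Control libraries, but neither difference passed the test, and the log2 fold change at Fatouville was 0.17 (SE 0.13, limma adjusted p = 0.441). Among the 10 most abundant genes, 9 had their lowest group mean of log2 level at Fatouville 2500 mg/L and LOC111697261 was the exception.

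The spread over libraries differed widely within the set. The SD of the log2 level over the 15 libraries had a median of 0.25, from 0.06 to 1.44, beside a median of 0.26 over all 18921 genes tested. In the genes of nearest abundance the median was lower, at 0.19 in the next 100 by mean, 0.20 in the 300 after those and 0.18 in the 500 after those. Within groups the medians were 0.22 for the set and 0.23 for all genes tested. The highest library was less than 2-fold above the lowest for 67 of the genes, and 3 had a range of 5-fold or more. Those 3 were the only genes of the set among the 2000 most variable of the table.

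The narrowest was LOC111695292, at 48590, 45301 and 45523 in Control and 45938, 44232 and 45704 at Fatouville 350 mg/L. It was at 45725, 43143 and 41566 at Fatouville 2500 mg/L, at 47186, 46119 and 44438 at Tancarville 350 mg/L, and at 49212, 45261 and 44297 at Tancarville 2500 mg/L. The range was 1.18-fold and every group overlapped every other. LOC111711401, from 18722 to 22608, and LOC111710623, from 15311 to 19624, followed.

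The 3 genes of wide range were LOC111712411, LOC111699860 and LOC111714228. LOC111712411 was at 9682, 23766 and 5748 in Control, and at 51775, 12811 and 5785 at Fatouville 350 mg/L. It was at 7266, 4170 and 3379 at Fatouville 2500 mg/L, at 44735, 24135 and 10186 at Tancarville 350 mg/L, and at 62264, 4600 and 39814 at Tancarville 2500 mg/L. Its group means ran from 4938 to 35560. In normalised counts, the pools of Fatouville 350 mg/L and of both Tancarville groups spanned a wider range than these means. The pools of Control and of Fatouville 2500 mg/L spanned a narrower one. LOC111699860 ranged from 2662 to 56415 and LOC111714228 from 6811 to 81635, and both were highest in Tancarville 2500 mg/L replicate 1, as LOC111712411 was. At Fatouville 2500 mg/L they parted, since LOC111714228 was at 33438, 28627 and 7019 there while LOC111712411 was at 7266, 4170 and 3379. The log2 fold changes of LOC111712411 were -1.23 (SE 1.09) for Fatouville 2500 mg/L against Control and -2.27 (SE 1.09) against Tancarville 2500 mg/L, with limma adjusted p-values of 0.533 and 0.286. DESeq2 called the second (log2 fold change -2.85, SE 0.90, adjusted p = 0.033). The mean of LOC111712411 over all libraries, 20674, was near the edge of the set at 17576. Its Tancarville 2500 mg/L mean of 35560 helped carry it into the set, so this comparison is not independent of the choice.

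**Figure D3:**
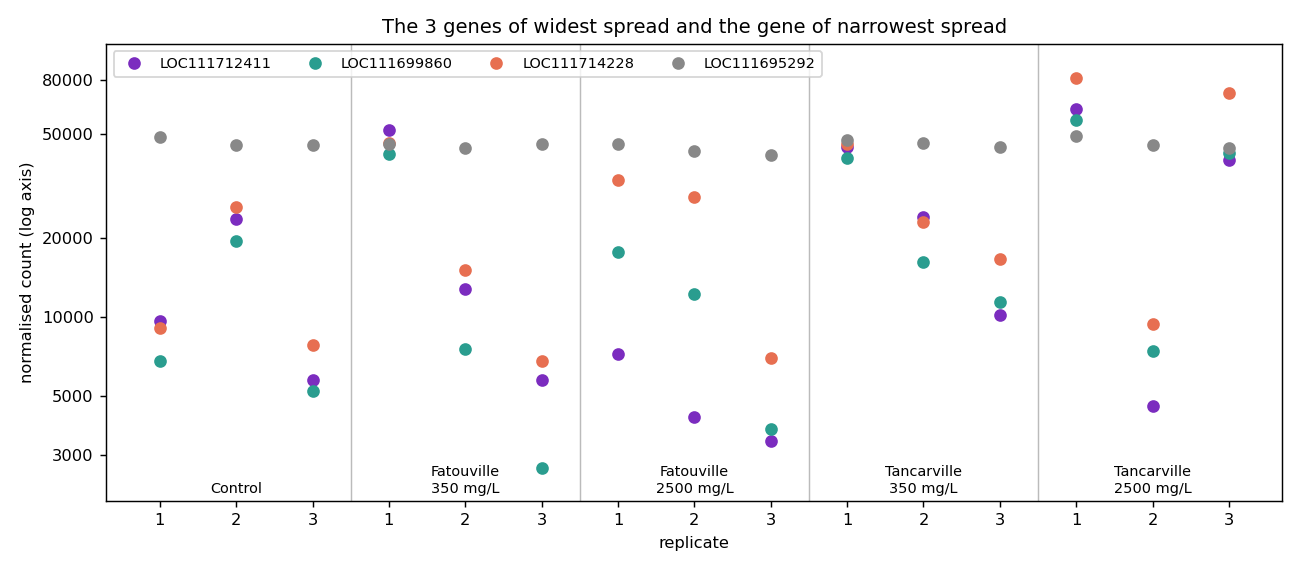
Normalised count (log axis) of the 3 genes of widest and the gene of narrowest spread in each library. LOC111712411, LOC111699860 and LOC111714228 are high in replicate 1 of Fatouville 350 mg/L, replicate 1 of Tancarville 350 mg/L and replicates 1 and 3 of Tancarville 2500 mg/L, while LOC111695292 stays between 41566 and 49212.

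The genes most like LOC111712411 by the correlation of log2 levels over the 15 libraries lay outside the set. The nearest was LOC111716345, with a correlation of 0.998 and a mean normalised count of 14710. For LOC111706020 the 5 nearest genes of the whole table were all in the set, led by LOC111706028. The correlation over 15 libraries describes likeness in these pools, which share groups and depth.

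LOC111711794 and LOC111715464 were next in spread. LOC111711794 was at 10178 in Fatouville 350 mg/L replicate 2, against 30956 and 33080 in the other libraries of that group. LOC111715464 was at 27016, 21474 and 23818 in Control, at 19092, 8758 and 24116 at Fatouville 350 mg/L, and at 11544, 15050 and 15265 at Fatouville 2500 mg/L. Its Fatouville 2500 mg/L libraries lay below Control without overlap, and limma gave a log2 fold change of -0.79 (SE 0.28, adjusted p = 0.127), while DESeq2 called it (adjusted p = 0.0236). Its identifier number is next to that of LOC111715465, and their levels correlated at 0.98. The set holds 3 pairs of consecutive identifier numbers. Reads shared between near-identical copies could have been assigned to either, which could not be checked.

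Correlated levels joined most of the set. Of the 4950 pairs of genes, 73.5% had a positive correlation over the 15 libraries, with a median of 0.34. Average linkage at a distance of 0.6 (1 minus the correlation) gave 10 clusters, of 64, 12, 9, 5, 4 and 2 genes and 4 genes alone. These clusters come from the values described and carry no test. Their number depends on the libraries: without Fatouville 350 mg/L replicate 2 the largest held 42 genes, all of them among the 64, while leaving out the 3 set apart gave a largest cluster of 73, of which 63 were among the 64.

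The cluster of 64 genes included 9 of the 10 most abundant and drew 14.4 to 20.9% of the reads in a library. Its median log2 level relative to each gene's own mean was 0.19, 0.11 and -0.13 in the Control libraries, and 0.10, -0.46 and 0.18 at Fatouville 350 mg/L. It was -0.30, -0.30 and -0.10 at Fatouville 2500 mg/L. It was -0.04, 0.15 and 0.17 at Tancarville 350 mg/L, and 0.24, 0.20 and -0.02 at Tancarville 2500 mg/L. The lowest library was Fatouville 350 mg/L replicate 2, in a group whose other libraries were high. At Fatouville 2500 mg/L all 3 libraries were below the mean, but the highest of them overlapped Control replicate 3.

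The cluster of 12 genes was the steadiest of those with more than 2 members, with a median SD of 0.11. It held LOC111695292 and LOC111710623. Its relative level was lowest at Fatouville 2500 mg/L, at -0.06, -0.16 and -0.20, against 0.16, 0.04 and 0.01 in Control, and these groups did not overlap. All 12 genes had a log2 fold change below 0 in this comparison, from -0.37 to -0.10. The cluster of 9 genes was high in Control replicate 3 (0.26) and Fatouville 350 mg/L replicate 2 (0.29), in both of which the cluster of 64 was low.

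The cluster of 5 genes, led by LOC111697261, was at -0.16, -0.06 and -0.21 in Control. It was at 0.20, 0.04 and 0.08 at Fatouville 2500 mg/L and at 0.11, 0.23 and 0.07 at Tancarville 2500 mg/L, above every Control library in both. At 350 mg/L it was mixed, with 0.12, -0.26 and 0.15 at Fatouville and -0.19, 0.04 and -0.17 at Tancarville. The cluster of 4 genes held the 3 of wide range and LOC111714229, named after its values were seen. It took from 0.307 to 1.51% of reads, and its relative level ran from -1.69 in Fatouville 2500 mg/L replicate 3 to 2.03 in Tancarville 2500 mg/L replicate 1. LOC111714229 itself was steadier than the others, from 30669 to 54186.

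**Figure D4:**
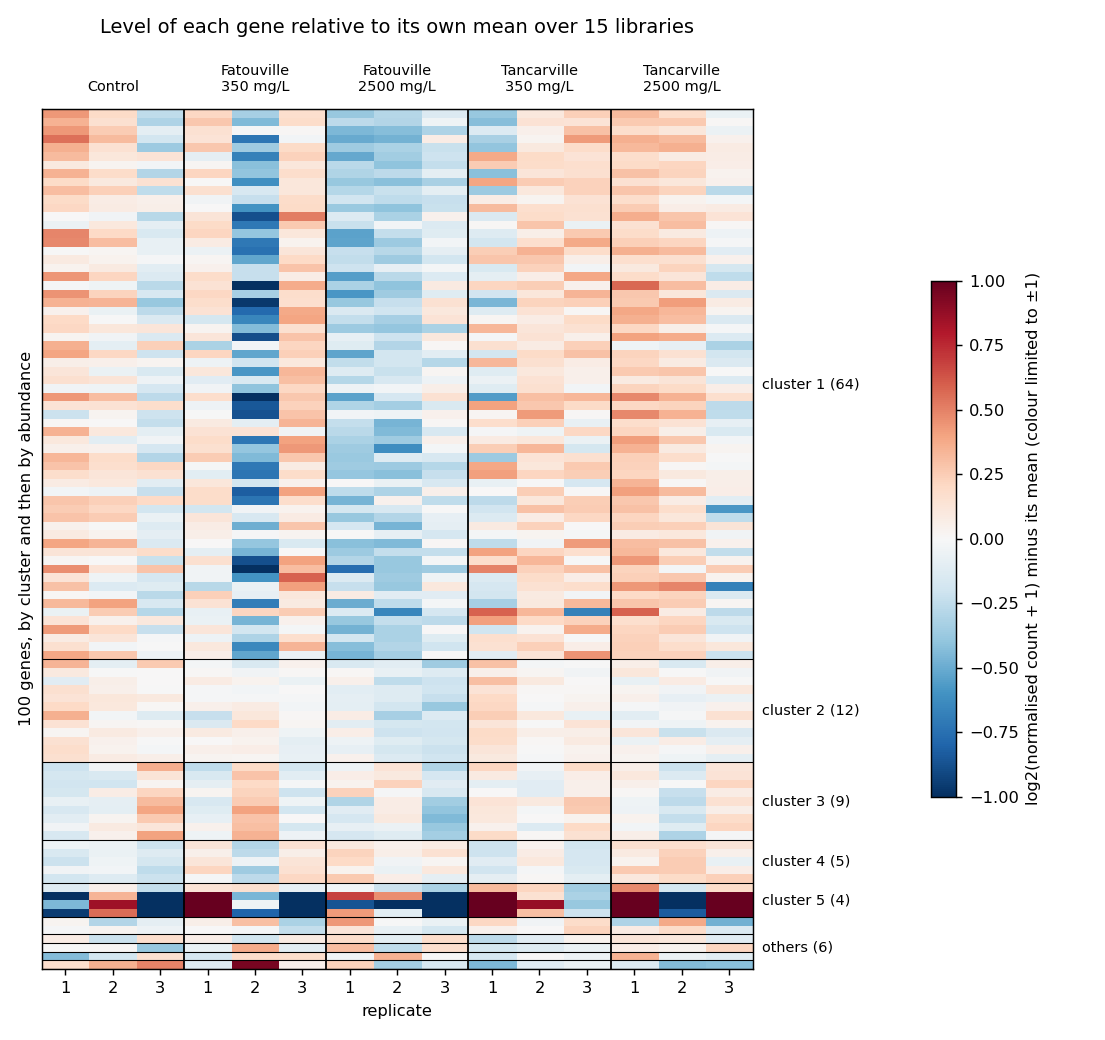
Level of each of the 100 genes in each library as log2(normalised count + 1) minus the gene's own mean, in colours limited to ±1, with genes in rows by cluster and libraries in columns by group. The cluster of 64 genes is pale blue across the Fatouville 2500 mg/L libraries and darkest in Fatouville 350 mg/L replicate 2, and the cluster of 4 genes changes between libraries of 1 group.

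LOC111714669 was among the genes that joined no cluster. It was at 22705, 25839 and 28475 in Control, and at 18481, 39123 and 20971 at Fatouville 350 mg/L. It was at 23683, 15988 and 18131 at Fatouville 2500 mg/L, at 14820, 18732 and 19440 at Tancarville 350 mg/L, and at 18368, 14980 and 15128 at Tancarville 2500 mg/L. Both Tancarville groups lay below Control without overlap. Its highest library was Fatouville 350 mg/L replicate 2, where most of the set was low and where 7 of the 100 genes were highest. Its Cook's distance there, 0.913, was the highest of the set. It had the smallest limma p of the 100 genes against Control for Tancarville 350 mg/L (log2 fold change -0.54, SE 0.23, adjusted p = 0.973) and for Tancarville 2500 mg/L (-0.67, SE 0.23, adjusted p = 0.566). DESeq2 called it for any difference among the 5 groups (adjusted p = 0.0416), where the limma adjusted p was 0.252.

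No gene of the set passed the test in any comparison. For Fatouville 2500 mg/L against Control, limma called 0 of the 100 at an adjusted p below 0.05, where 0.19% of the 18921 genes tested were called. At an unadjusted p below 0.05 it gave 28 of the 100 lower, where 10.6% of all genes were, and 1 higher, where 12.1% were. edgeR called 0 (0.217% of all genes). DESeq2 called 17, all lower, where it called 9.27% of all genes in either direction. Of the 17686 genes with an adjusted p it called 735 lower and 904 higher. LOC111698521 and LOC111704649 had the smallest p-values of these 17, with DESeq2 adjusted p-values of 0.00158 and 0.00511.

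In this comparison 83 of the 100 genes had a log2 fold change below 0, against 48.4% of all genes tested. The median was -0.23, against 0.01 over all genes tested. For 31 of them all Fatouville 2500 mg/L libraries lay below all Control libraries, where 13.0% of all genes did. For 4 of them they lay above, where 12.3% of all genes did, and these 4 were all in the cluster of 5 led by LOC111697261. By group, 72 of the 100 had their lowest mean log2 level at Fatouville 2500 mg/L, where 31.2% of all genes tested did.

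The lower level was not limited to the first 100 genes. In order of mean level, the next 100 genes had a median log2 fold change of -0.19, the 300 after those -0.18, the 500 after those -0.11 and the 1000 after those -0.04. Over the same steps the share of genes below 0 was 80, 75, 63.6 and 54.4%, next to 83% in the first 100. The share whose Fatouville 2500 mg/L libraries all lay below Control was 36% in the next 100 and 34% in the 300 after those, no smaller than the 31% of the first 100. The values depend on the scaling. Quantile normalisation gives every library the same set of values and so holds the summed level of the first ranks fixed. It left a median of -0.04 over the 100 genes and 58 below 0. The median over all genes tested was then -0.10, so the set no longer lay below it.

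Against Tancarville at the same concentration, Fatouville 2500 mg/L gave the widest shift of the set. The median log2 fold change was -0.31, against 0.01 over all genes tested, and 93 of the 100 genes were below 0. limma called 0 of them, where it called 0.0% of all genes, and at an unadjusted p below 0.05 22 were lower, where 8.2% of all genes were, and 0 higher (11.4%). DESeq2 called 6, all lower, where it called 6.4% of all genes in either direction. Of the 13884 genes with an adjusted p it called 305 lower and 583 higher. Among the 6 was LOC111712411, which entered the set in part through its high Tancarville 2500 mg/L values. edgeR called 0 (0.0%). For 41 genes all Fatouville libraries lay below all Tancarville libraries, where 10.9% of all genes did, and for 0 they lay above, where 12.0% of all genes did. The next 100 genes had a median of -0.20, and 42% of them lay lower without overlap. With quantile normalisation the median over the 100 genes was -0.03, against -0.04 over all genes tested.

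**Figure D5:**
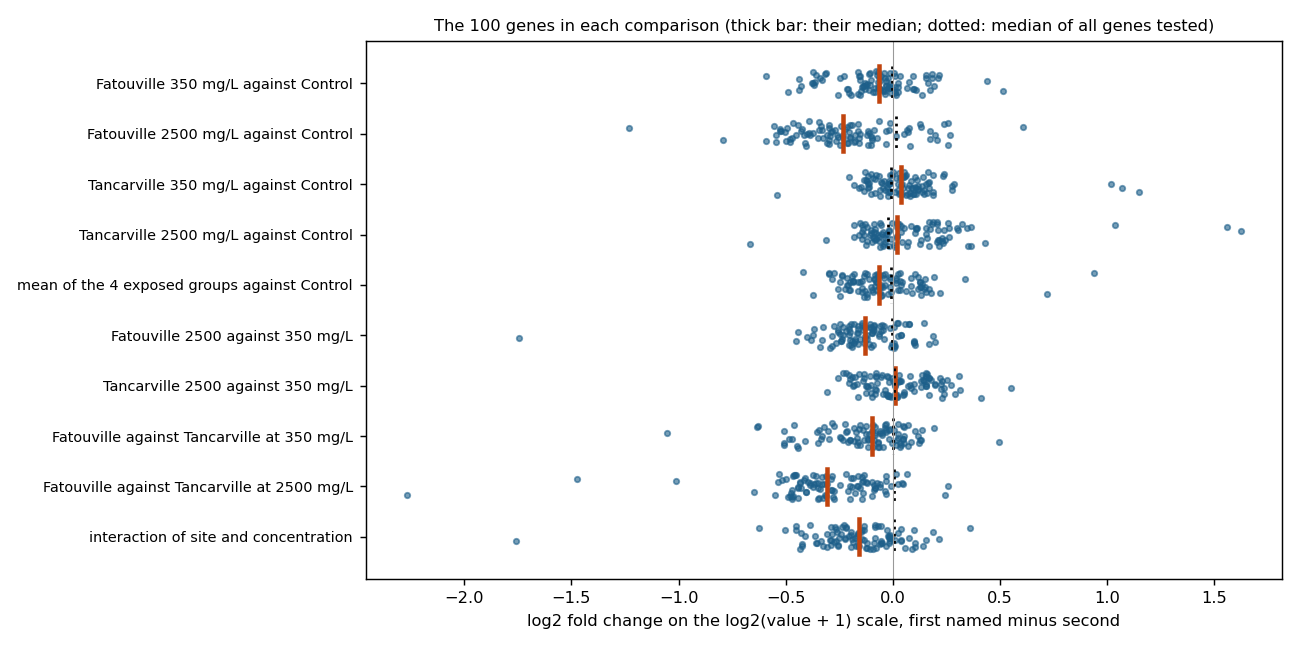
Log2 fold change of each of the 100 genes in the 10 comparisons, on the log2(value + 1) scale, first-named group minus second; the thick bar is their median and the dotted line the median of all genes tested. The medians at Fatouville 2500 mg/L lie at -0.23 against Control and -0.31 against Tancarville, while those of both Tancarville groups against Control lie near 0, with a few genes of wide spread beyond 1.

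At the lower concentration of Fatouville the direction of the set rested on 1 library. Against Control the median was -0.06, with 72 genes below 0. Without replicate 2 it was 0.02 with 49 below 0, and the difference in share turned from -0.903 to 0.405 percentage points. With quantile normalisation of all libraries it was -0.008 with 54 below 0. limma called 0 of the 100, where it called 0.0% of all genes. LOC111702192 had the smallest p, with 27227, 25092 and 25690 in Control and 22075, 13591 and 23543 at Fatouville 350 mg/L, and 1 library lay far below the other 2. Its log2 fold change was -0.44 (SE 0.16, adjusted p = 0.928). At an unadjusted p below 0.05 there were 3 lower (2.56%) and 0 higher (2.01%), and edgeR (0.0%) and DESeq2 (0.041%) called 0. All libraries lay below Control for 5 genes (5.6% of all genes) and above it for 0 (5.01%). Fatouville 2500 against 350 mg/L had a median of -0.13 with 79 genes below 0. limma called 0 of the 100 (0.00529% of all genes) and DESeq2 1 (5.57%), which was LOC111698521, with a limma log2 fold change of -0.45 (SE 0.15, adjusted p = 0.135). Of the 18958 genes with an adjusted p, DESeq2 called 212 lower and 844 higher. edgeR called 0 (0.0%), and at an unadjusted p below 0.05 limma gave 4 lower (7.75% of all genes) and 0 higher (12.1%). Without Fatouville 350 mg/L replicate 2 that median was -0.27. With quantile normalisation of all libraries it was 0.002, where that of all genes tested was -0.104. The count also depended on that library. Without it limma gave 41 lower (8.68% of all genes) and 0 higher at an unadjusted p below 0.05.

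In both Tancarville groups the median of the set lay near Control, though not every gene did. Log2 fold changes of single genes ran from -0.54 to 1.15 at 350 mg/L and from -0.67 to 1.62 at 2500 mg/L. The median log2 fold change was 0.04 at 350 mg/L and 0.02 at 2500 mg/L, with 42 and 46 of the 100 genes below 0. Both turned below 0 with quantile normalisation, to -0.03 and -0.09, where all genes tested had medians of -0.02 and -0.08. With scaling to all other genes the value at 2500 mg/L turned to -0.04. The median of all genes tested moved with it, from -0.02 to -0.08. limma called 0 of them at 350 mg/L (0.0159% of all genes) and 0 at 2500 mg/L (0.0211%), as did edgeR (0.0159% at both) and DESeq2 (0.137 and 1.18%). At an unadjusted p below 0.05 it gave 1 lower (2.5%) and 0 higher (1.35%) at 350 mg/L, and 1 lower (3.3%) and 1 higher (4.66%) at 2500 mg/L. At 350 mg/L all libraries lay above Control for 10 genes (5.46% of all genes) and below for 1 (6.44%). At 2500 mg/L they lay above for 11 (8.62%) and below for 3 (7.93%). The cluster of 5 led by LOC111697261 supplied 4 of those 11. Between the 2 concentrations the median was 0.01, which turned to -0.04 with quantile normalisation and to -0.02 with scaling to all other genes. The median of all genes tested moved alike, from 0.007 to -0.035 and to -0.023. limma (0.0% of all genes), edgeR (0.0%) and DESeq2 (0.0137%) called 0 of the 100, with 0 lower (2.93%) and 1 higher (2.81%) at an unadjusted p below 0.05 in limma. LOC111708907 had the smallest p there, with 26450, 30028 and 27149 at 350 mg/L and 36213, 35992 and 31648 at 2500 mg/L, without overlap, and a log2 fold change of 0.31 (SE 0.14, adjusted p = 0.857).

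At 350 mg/L the median difference between the sites was -0.10 (Fatouville minus Tancarville), with 74 genes below 0. It was 0.002 with 49 below 0 without Fatouville 350 mg/L replicate 2, and 0.0 with 48 below 0 with quantile normalisation. The difference in share turned to 0.474 percentage points without that library. limma (0.0% of all genes), edgeR (0.0%) and DESeq2 (0.0228%) called 0 of the 100. At an unadjusted p below 0.05 there were 11 lower, where 2.31% of all genes were, and 0 higher (2.34%), and without that library there were 4 lower, where 1.72% of all genes were. LOC111708304 had the smallest p, with 18633, 14170 and 20181 at Fatouville and 25973, 22418 and 22981 at Tancarville, without overlap, and a log2 fold change of -0.44 (SE 0.14, adjusted p = 0.982). The interaction, the difference between the concentration steps at Fatouville and at Tancarville, had a median of -0.16 with 84 genes below 0, which became -0.30 without Fatouville 350 mg/L replicate 2 and -0.001 with quantile normalisation. limma (0.0% of all genes), edgeR (0.0%) and DESeq2 (0.00456%) called 0 of the 100 for it, with 1 lower (3.11%) and 0 higher (4.64%) at an unadjusted p below 0.05 in limma, so the difference between the sites in their concentration step was not shown for any gene of the set. LOC111712816 had the smallest p for it (log2 fold change -0.62, SE 0.29, adjusted p = 0.641). Without Fatouville 350 mg/L replicate 2, limma gave 26 lower for the interaction (4.58% of all genes) and 0 higher at an unadjusted p below 0.05.

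Taking the 4 exposed groups together, limma called 0 of the 100 against Control (0.0317% of all genes), as did edgeR (0.0317%) and DESeq2 (0.907%), with 2 lower (3.22%) and 1 higher (3.8%) at an unadjusted p below 0.05. No gene had all 12 exposed libraries below or above all Control libraries, which 0.312 and 0.375% of all genes had. For any difference among the 5 groups limma called 0 of the 100 (0.0264% of all genes), edgeR 0 (0.713%) and DESeq2 15 (9.7%). At an unadjusted p below 0.05 limma gave 13, where 18.2% of all genes were.

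The libraries that stood apart bear on these counts. Without Fatouville 350 mg/L replicate 2, limma called 8 of the 100 for Fatouville 2500 mg/L against Control (3.17% of all genes), 7 for Fatouville against Tancarville at 2500 mg/L (0.976%) and 8 for any difference (1.19%), although that library belongs to neither group of the first 2 comparisons. Leaving it out changes the shared estimate of the spread and the genes that pass the filter, 18847 in place of 18921, and their parts were not tested separately. Without all 3, it called 30 (9.22% of all genes), 24 (4.71%) and 16 (5.41%), and 9 for Fatouville 2500 against 350 mg/L (3.65%). All 30 were lower than in Control and 29 of them belonged to the cluster of 64, and 13 were also among the 17 that DESeq2 called with all libraries. The 3 libraries had been set apart because they differed from their groups. Leaving them out therefore narrows the spread within groups, and higher counts are partly built into that choice. The 13 shared genes rest on the same pools and are not an independent check.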

How the data were processed

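Per the labels' protocols, mRNA libraries were made with the Universal Plus mRNA-Seq kit from 200 ng of total RNA. HTSeq 0.11.2, DESeq2, Salmon and STAR are listed, with no roles, in the submitters' processing notes. For the genome build, annotation and strand setting the answer is not given in the sources used here. Normalised signal per gene is what the authors deposited, and dividing by the worth of 1 read gave whole reads for 100% of the entries above 0 (tolerance 1e-06). The deposited Cook's distances are a score per gene and library and were only described.

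Members were the first 100 genes by the deposited mean over all libraries. Shares were taken from the recovered reads. Group comparisons used limma 3.58.1 (R 4.3.3) on log2(value + 1), a scale on which fold changes of low genes are understated, with a term per group over all 15 libraries, an intensity trend and robust moderation. The filter asked for 3 or more libraries at 10 or more, and 18921 genes passed it, all 100 members among them, while 4807 did not. A gene was called at a two-sided Benjamini-Hochberg adjusted p below 0.05 over all genes tested. edgeR 4.0.16 (quasi-likelihood, TMM) and DESeq2 1.42.0 were the alternative tests, on recovered reads. Missing adjusted p-values of DESeq2 stayed missing, and its percentages of all genes are of the genes that had one. For Fatouville 2500 mg/L against Control edgeR and DESeq2 called 41 and 1639 genes, limma 36. The fits were tested on simulated data with the same dispersion for every gene and no library set apart. That setting is simpler than these data and cannot decide between limma and DESeq2 where they differ here. Pearson correlations and clusters used log2(value + 1) over 15 libraries.

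Genes named are the 10 most abundant, ranks 99 to 102, the 5 of highest and 3 of lowest SD, and per comparison the member of smallest p where none was called; others are marked where they appear or were named as the nearest by correlation or by DESeq2. The members and lists were chosen with earlier results of these data known. Lists by product name could not be applied, since 0 identifiers were annotated. Replicate numbers come from the labels, which name no shared batch; deviations from the group mean correlated above 0.1 for all 3 numbers in 2 of the 10 pairs of groups, Control with Tancarville 2500 mg/L and Fatouville with Tancarville at 350 mg/L. No libraries were duplicates: replicates differed far beyond sampling noise.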

Additional observations from a re-analysis of the deposited data

How the results depend on the processing

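The count of genes of the set called by limma was 0 in every comparison and moved as follows. For Fatouville 2500 mg/L against Control it was 17 with DESeq2, 1 with quantile normalisation, 1 with only the groups compared, from 0 to 8 when 1 library was left out (1 without Control replicate 3, 8 without Fatouville 350 mg/L replicate 2), and 30 without the 3 libraries that stood apart. For Fatouville 2500 against 350 mg/L it was 1 with DESeq2 and 9 without those 3. For the sites at 2500 mg/L it was 6 with DESeq2, from 0 to 7 with 1 library left out and 24 without the 3. For any difference it was 15 with DESeq2, from 0 to 8 with 1 library left out and 16 without the 3. Other settings of pseudocount, filter and scaling and edgeR gave 0. With the replicate block, over all libraries or over the groups compared alone, 0 genes of the set were called in every comparison.

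The small differences in share changed sign. Tancarville 350 mg/L against Control (-0.068 percentage points) was 0.0256 with 200 genes, 0.458 without the 5 most abundant, 0.00113 with genes chosen on exposed libraries, and from -0.860 to 0.619 with 1 library left out. Tancarville 2500 mg/L against Control (0.226) was -0.0453 with genes chosen by median, -0.291 without the 3 genes of widest spread, -0.161 for the largest cluster, and from -0.565 to 1.15 with 1 library left out. Tancarville 2500 against 350 mg/L (0.294) was -0.102 without the 5 most abundant and from -0.338 to 1.22 with 1 library left out. Fatouville 350 mg/L against Control ran from -1.69 to 0.405 with 1 library left out, and the sites at 350 mg/L from -1.62 to 0.474, the last also without the 3 libraries. The settings on spread, the largest cluster and the block over the groups compared were chosen after seeing the data. Of all alternatives run, none turned the sign of the deficit in share of Fatouville 2500 mg/L against Control. Leaving out libraries could not have turned it, since all libraries of that group lay below every Control library. The genes chosen by median and on exposed libraries shared 97 and 98 members with the set, so these choices were also weak tests.

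Quantile normalisation moved the median of all genes by -0.12 (log2) for Fatouville 2500 mg/L against Control, its widest shift. For Fatouville 2500 mg/L it moved the median of the set to -0.041 against Control, 0.002 against Fatouville 350 mg/L and -0.027 against Tancarville 2500 mg/L. For the interaction it moved that median to -0.001. The medians of all genes tested were then -0.104, -0.104, -0.041 and -0.051 in the same order. Quantile normalisation fixes the values at each rank by its construction. Against Control at Fatouville 2500 mg/L it gave 0.20 for LOC111694798 and 0.15 for LOC111712816, and between sites at 2500 mg/L 0.11 for LOC111697261. LOC111711794 ran from -0.038 (without Control replicate 3) to 0.307 (without Control replicate 1) for Tancarville 2500 mg/L against Control. With 3 pools a group, an exact test of 1 value cannot go below 0.1, and depth was not the limit for genes with at least 2759 reads in each library.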
